A study of Homo sapiens with 24 samples.

Results

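A4GALT, ST6GALNAC2, VTCN1, SSTR1, CACNA1H, BCO1, LIPF, GSTA1, PRKCH and RCAN1 are 10 genes whose RNA climbed between day 1 and day 6 of induction mainly in cells made to express ΔNp63. They were picked by that rise in the same libraries, without a numeric threshold, so their levels at days 1 and 6 are a description and are not tested. They are 10 of 28278 genes counted and 10 of 15642 genes that passed the filter on low counts. The working name for them was late secretory and membrane genes. It holds in part: PRKCH, RCAN1, BCO1 and GSTA1 are known as intracellular proteins. The set is called here the 10 late genes, a label for the rise between days 1 and 6. Timing differed among them: by day 3 A4GALT had covered 91.4% of its ΔNp63 day 6 minus day 0 difference, and LIPF 15.2%.

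RNA was sequenced from TYUC-1, a human cell line of neuroendocrine esophageal carcinoma kept in suspension in DMEM/F12 with serum. One engineered line carried a ΔNp63 construct (i-DNp63) and another a TAp63 construct (i-TAp63), each induced with doxycycline at 1 µg/ml for 0, 1, 3 or 6 days of a 6 day course, with DMSO on the remaining days, and 3 libraries were made per line and day. A further label names EPZ-6438, which blocks EZH2, the enzyme that methylates histone H3 in polycomb silencing, for the same number of days as doxycycline. Whether it was present is not settled by the labels, so each comparison of days would also be one of inhibitor if it was used. The line and its construct cannot be told apart, and doxycycline-treated cells without a construct were not analysed here. The replicates are described as biological but not how the cultures were separated, and p-values therefore reflect only how much these libraries varied.

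TP63 makes its 2 main kinds of protein from alternative promoters. ΔNp63 lacks the N-terminal activation domain of TAp63 and is the predominant form in the basal layer of squamous epithelia, including that of the esophagus. p63 proteins bind DNA as tetramers at sites related to those of p53, and the esophageal squamous lining depends on them. Of the 10 late genes, A4GALT and ST6GALNAC2 encode glycosyltransferases of the Golgi, VTCN1, SSTR1 and CACNA1H encode proteins of the cell surface, LIPF encodes a secreted digestive lipase, BCO1 and GSTA1 encode metabolic enzymes, and PRKCH and RCAN1 encode regulators of intracellular signalling.

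Promoter sequence was matched in RefSeq (GRCh38.p14) for 8 of the 10 genes, which gave 14 windows of 250 bases directly upstream of an annotated start. ST6GALNAC2 and CACNA1H were the genes without one. Each window was searched on both strands for the p53-family half-site, for TGANTCA (the AP-1 site), for TATAAA (the TATA box) and for GGGCGG (the GC box). The half-site was in 5.57% of all 35116 windows of the table, TGANTCA in 6.57%, TATAAA in 10.7% and GGGCGG in 42.6%. Among the 8 genes with a window, BCO1 and SSTR1 each held 1 half-site, 156 and 52 bases upstream of the start. The windows not printed held no half-site, but held TGANTCA and TATAAA in RCAN1 and GGGCGG in A4GALT, PRKCH and RCAN1. Those of BCO1 and SSTR1 are printed because p63 belongs to the family that reads such letters. LIPF and GSTA1, the genes with the latest rise, are printed beside them; GSTA1 held TATAAA 30 bases upstream, and LIPF held none of the 4 motifs. Capitals mark the match to a motif, and each sequence runs 5′ to 3′ on the gene's own strand: chr16:81238439-81238688 (plus) for BCO1, chr14:38207654-38207903 (plus) for SSTR1, chr10:88664192-88664441 (plus) for LIPF and chr6:52803817-52804066 (minus) for GSTA1. A match is a run of letters, not a measured binding site.
BCO1 promoter: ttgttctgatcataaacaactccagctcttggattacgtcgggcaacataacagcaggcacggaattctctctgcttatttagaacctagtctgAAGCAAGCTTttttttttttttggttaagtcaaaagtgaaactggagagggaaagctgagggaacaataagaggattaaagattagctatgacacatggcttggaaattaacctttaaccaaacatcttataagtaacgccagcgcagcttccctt
SSTR1 promoter: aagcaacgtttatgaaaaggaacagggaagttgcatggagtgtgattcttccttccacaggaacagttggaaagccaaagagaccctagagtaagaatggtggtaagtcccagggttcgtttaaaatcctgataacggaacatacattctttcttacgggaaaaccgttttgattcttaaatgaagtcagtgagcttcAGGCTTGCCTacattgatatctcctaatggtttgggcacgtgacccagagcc
LIPF promoter: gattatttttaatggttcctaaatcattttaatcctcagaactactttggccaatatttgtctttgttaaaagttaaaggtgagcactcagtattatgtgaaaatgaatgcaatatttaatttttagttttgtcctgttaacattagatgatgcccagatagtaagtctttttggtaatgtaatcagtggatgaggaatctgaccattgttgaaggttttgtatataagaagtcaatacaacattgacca
GSTA1 promoter: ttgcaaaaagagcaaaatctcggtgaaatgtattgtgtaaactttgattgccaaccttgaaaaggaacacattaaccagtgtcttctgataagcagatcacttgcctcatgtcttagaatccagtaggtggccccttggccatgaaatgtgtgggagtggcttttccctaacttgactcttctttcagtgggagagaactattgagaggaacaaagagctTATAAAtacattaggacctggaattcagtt

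Library totals ran from 1530847 to 22019974 counts. The library labelled replicate 3 of ΔNp63 day 1 stood apart: it had the lowest total, where the next lowest was 6375963, it scored -193.9 on a first principal component on which the others lay between -17.0 and 24.9, and it held 1727 CPM (counts scaled to a common library size) of the fetal globin HBG2 against at most 30.6 CPM elsewhere. It held 69.2 CPM of TP63, against 721 and 576 CPM in the other ΔNp63 day 1 libraries, so its label is in doubt; it gives the last of the 3 ΔNp63 day 1 values wherever these are printed for a gene. It enters the common estimate of spread, so counts of called genes are given with and without it, and its own values at day 1 rest on few counts (1 of VTCN1, 0 of SSTR1 and GSTA1). In the other libraries HBG2 varied with the replicate number. It was 13.4 to 30.6 CPM in replicate 1, 0.647 to 6.89 CPM in replicate 2 and 0.131 to 0.948 CPM in replicate 3. TP63 RNA, both isoforms summed, averaged 865 ± 140 CPM at day 3 against 4.35 ± 0.517 CPM at day 0 in the ΔNp63 line, and 558 ± 92.8 CPM at day 3 against 2.93 ± 0.0361 CPM at day 0 in the TAp63 line (SD, n = 3 each). At day 3 every ΔNp63 library held more TP63 RNA than every TAp63 library, and the part of this difference in the results was not tested. The neuroendocrine markers CHGB, ENO2 and UCHL1 were present, whereas CHGA, INSM1 and SCG2 were too low to be tested. SCGN, another, was called higher at ΔNp63 day 3, at 2.87 ± 0.316 CPM against 0.805 ± 0.0597 CPM at day 0 (log2 change 1.83 ± 0.453, edgeR adjusted p = 0.0349), a call lost on leaving out any of these 6 libraries (0.0699 to 0.187). It was called at ΔNp63 day 6 too (adjusted p = 0.0319; 0.0595 to 0.159 with any of the 6 libraries left out), and its part in the results was not tested.

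**Figure D1:**
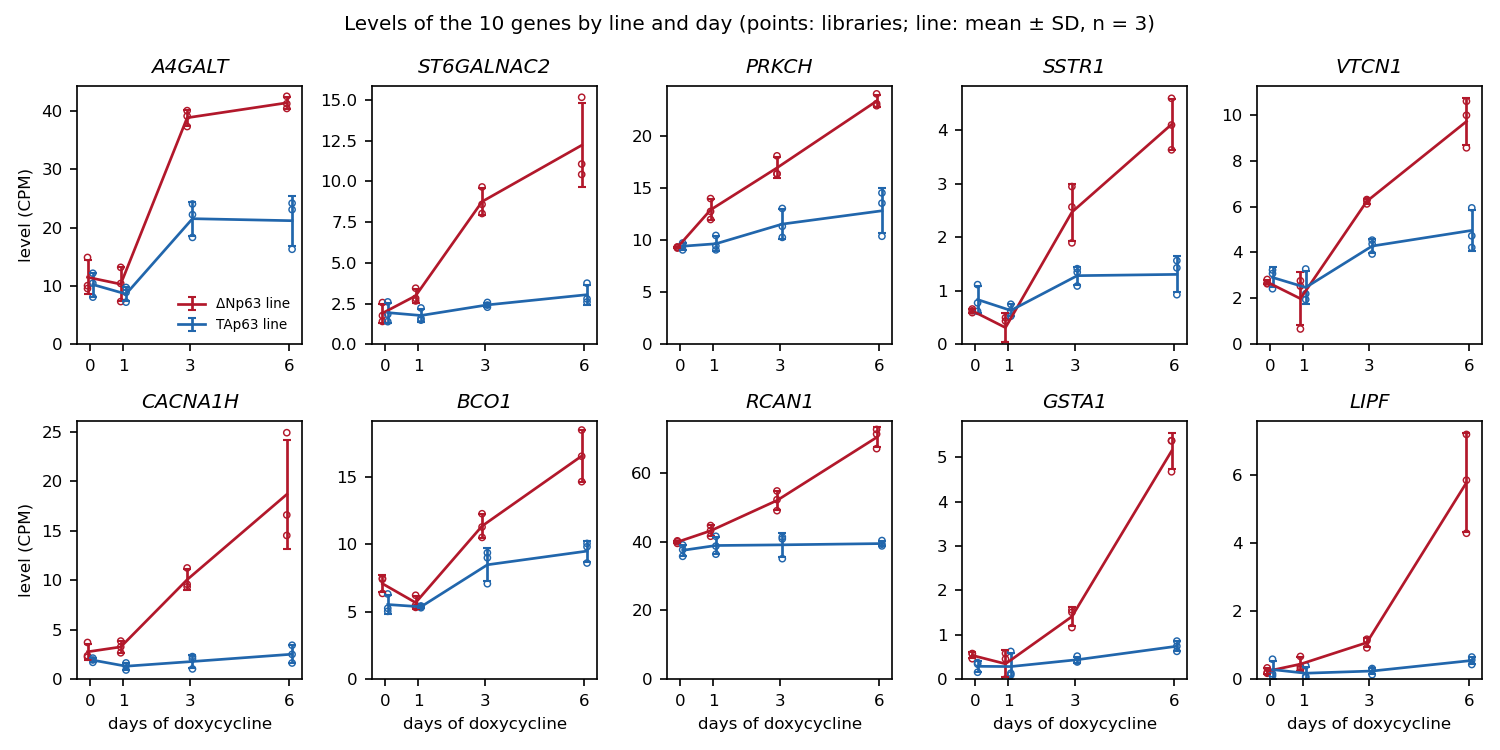
Level of each of the 10 genes in CPM (vertical axis, from 0, scaled per gene) against days of doxycycline, with the ΔNp63 line in red and the TAp63 line in blue; points are libraries and lines join means ± SD (n = 3). At day 6 every ΔNp63 library lies above every TAp63 library for each of the 10 genes (7.33% of tested genes do so, and day 6 took part in the choice). At day 0 this already holds for BCO1, CACNA1H, GSTA1 and RCAN1 (2.67% of tested genes do so), and the lines overlap in the other genes.

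The rise that chose the genes was that between days 1 and 6, so the tests compare day 3 with day 0. Day 3 lies within that interval and earlier results of these data were known, so the tests are not fully independent of the choice. By day 3 of ΔNp63 induction 9 of the 10 genes were called higher than at day 0 (edgeR quasi-likelihood test, Benjamini-Hochberg adjusted p under 0.05), where 1.66% of all tested genes were called higher. Their median log2 change was 1.57, beside -0.01 over all tested genes. GSTA1 was the one not called. In all 10 genes each ΔNp63 day 3 library lay above each day 0 library, a separation that 13.1% of tested genes showed. Without the library that stood apart all 10 genes were called, among 1000 genes called in either direction instead of 344 (4.35% of tested genes called higher). With the replicate number as a block all 10 were called too, among 1078 genes (4.21% called higher), and with both changes all 10 among 3712 (12.2% of tested genes called higher). In bulk RNA a change in the number of cells that express a gene and a change in RNA per cell cannot be told apart.

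A4GALT (chromosome 22, 42692112 to 42721301, minus strand, hg38) encodes the galactosyltransferase that makes globotriaosylceramide, a glycolipid of the cell surface and the receptor of Shiga toxin. In the ΔNp63 line its level was 9.55, 14.9 and 10.0 CPM at day 0, 10.4, 13.2 and 7.32 CPM at day 1, 40.0, 39.1 and 37.3 CPM at day 3 and 41.2, 40.4 and 42.5 CPM at day 6. Days 0 and 1 overlapped, and days 3 and 6 were both far above them with little spread. The log2 rise at day 3 was 1.75 ± 0.200 (SE; edgeR adjusted p = 1.58e-05), and by then the gene had covered 91.4% of its whole day 6 minus day 0 difference. In the TAp63 line A4GALT measured 12.2, 8.07 and 10.5 CPM at day 0, 9.73, 8.89 and 7.21 CPM at day 1, 18.3, 24 and 22.2 CPM at day 3 and 16.3, 23.1 and 24.2 CPM at day 6. It rose there as well, to a lower plateau whose libraries did not overlap with day 0 (log2 change 1.09 ± 0.203 at day 3, edgeR adjusted p = 0.00945). That TAp63 call was lost on leaving out TAp63 day 0 replicate 2 (adjusted p = 0.129), day 0 replicate 3 (0.0559) or day 3 replicate 2 (0.0786).

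ST6GALNAC2 (chromosome 17, 76565377 to 76585860, minus strand) encodes a sialyltransferase that caps O-linked mucin-type glycans. Its ΔNp63 libraries held 1.40, 1.76 and 2.56 CPM at day 0, 2.82, 3.44 and 2.66 CPM at day 1, 8.03 to 9.66 CPM at day 3 and 11.1, 10.4 and 15.2 CPM at day 6. Each step was upward without overlap, the first one small. At day 3 the log2 change was 2.19 ± 0.254 (edgeR adjusted p = 1.89e-05). The TAp63 line stayed low throughout, at 1.39, 1.84 and 2.60 CPM at day 0, 2.28, 2.40 and 2.57 CPM at day 3 and 2.78, 3.75 and 2.59 CPM at day 6. Its day 3 and day 0 libraries overlapped (log2 change 0.27 ± 0.264, edgeR adjusted p = 1.00). GENCODE annotates a gene on the opposite strand within this span, and the unstranded counts cannot separate the pair.

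VTCN1 (chromosome 1, 117143587 to 117210960, minus strand) encodes a B7 family protein of the cell surface that restrains T cells. Its ΔNp63 values were 2.63, 2.67 and 2.82 CPM at day 0, 2.53, 2.76 and 0.665 CPM at day 1, 6.11, 6.30 and 6.27 CPM at day 3 and 9.97, 8.56 and 10.6 CPM at day 6. The replicates were tight at day 3 and clear of day 0. The log2 change at day 3 was 1.20 ± 0.237 (edgeR adjusted p = 0.00689). Without ΔNp63 day 0 replicate 2 the adjusted p was 0.0507. TAp63 libraries held 3.24, 2.42 and 3.08 CPM at day 0, 3.93, 4.54 and 4.37 CPM at day 3 and 4.21, 5.94 and 4.72 CPM at day 6. Each of the TAp63 day 3 values lay above day 0, with a log2 change of 0.57 ± 0.243 that was not called (edgeR adjusted p = 0.890).

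SSTR1 (chromosome 14, 38207904 to 38213067, plus strand) encodes one of the G protein-coupled receptors for somatostatin, a hormone that restrains secretion, and somatostatin receptors are commonly studied in neuroendocrine tumours. It was sparse before induction, at 0.659, 0.625 and 0.591 CPM at day 0 and 0.434, 0.498 and 0 CPM at day 1 in the ΔNp63 line, and reached 1.90, 2.57 and 2.95 CPM at day 3 and 4.60, 4.10 and 3.63 CPM at day 6. The day 3 libraries all exceeded day 0, with a log2 change of 1.97 ± 0.315 (edgeR adjusted p = 0.000833). Under TAp63 it ran from 0.616 to 1.11 CPM at day 0, from 1.09 to 1.41 CPM at day 3 and from 0.926 to 1.56 CPM at day 6. Those ranges overlapped, and the log2 change at day 3 was 0.55 ± 0.322 (edgeR adjusted p = 1.00).

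CACNA1H (chromosome 16, 1153106 to 1221772, plus strand) encodes the pore-forming subunit of a T-type, low-voltage-activated calcium channel. ΔNp63 cells had 3.70, 2.21 and 2.36 CPM at day 0, 3.26, 3.85 and 2.66 CPM at day 1, 11.2, 9.59 and 9.34 CPM at day 3 and 24.9, 16.6 and 14.5 CPM at day 6. Days 0 and 1 overlapped, day 3 was clear of both, and day 6 was spread out, with replicate 1 high. The day 3 change of 1.87 ± 0.291 (log2) was called (edgeR adjusted p = 0.000616). TAp63 cells had 1.69, 1.93 and 2.12 CPM at day 0, 2.28, 2.04 and 1.03 CPM at day 3 and 3.43, 1.63 and 2.50 CPM at day 6. The groups overlapped there and the log2 change at day 3 was -0.09 ± 0.320 (edgeR adjusted p = 1.00). CACNA1H overlaps TPSG1 on the opposite strand, and fragments in the overlap were counted for neither gene.

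BCO1 (chromosome 16, 81238689 to 81291142, plus strand) encodes the oxygenase that cleaves β-carotene into retinal, the entry to vitamin A. The ΔNp63 line gave 7.41, 6.36 and 7.48 CPM at day 0, 6.22, 5.48 and 5.32 CPM at day 1, 10.5, 12.3 and 11.3 CPM at day 3 and 14.7, 16.5 and 18.5 CPM at day 6. Every day 1 library was below every day 0 library, and days 3 and 6 were above both. The log2 change at day 3 was 0.68 ± 0.148 (edgeR adjusted p = 0.0145). The call was lost without ΔNp63 day 0 replicate 2 (0.114), day 3 replicate 2 (0.0956) or day 3 replicate 3 (0.0572). Its TAp63 values were 6.32, 5.03 and 5.25 CPM at day 0, 9.0, 7.08 and 9.37 CPM at day 3 and 10.1, 9.82 and 8.61 CPM at day 6. TAp63 days 0 and 3 did not overlap, and the log2 change was 0.62 ± 0.154 (edgeR adjusted p = 0.106). The adjusted p became 0.0411 with the replicate block and 0.0376 without the library that stood apart.

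LIPF (chromosome 10, 88664442 to 88678813, plus strand) encodes gastric lipase, a secreted enzyme of stomach chief cells. It was at the edge of detection before induction: 4, 3 and 3 counts, or 0.329, 0.170 and 0.197 CPM, at day 0 of the ΔNp63 line, then 0.289, 0.362 and 0.665 CPM at day 1, 0.917, 1.17 and 1.13 CPM at day 3 and 4.29, 7.19 and 5.85 CPM at day 6, the last from 55, 100 and 37 counts. Most of the climb came after day 3. The day 3 change of 2.20 ± 0.540 (log2, edgeR adjusted p = 0.0322) was lost on leaving out any of the 6 ΔNp63 libraries of days 0 and 3, with adjusted p between 0.0582 and 0.199. In the TAp63 line it was between 0.0967 and 0.584 CPM at day 0, between 0.128 and 0.310 CPM at day 3 and between 0.428 and 0.648 CPM at day 6. Counts there were at most 11 per library; day 0 overlapped with days 3 and 6, and every day 6 library lay above every day 3 library. No change at day 3 against day 0 was detectable at this depth (log2 change -0.26 ± 0.618, edgeR adjusted p = 1.00; 1.07 without TAp63 day 0 replicate 3).

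GSTA1 (chromosome 6, 52791371 to 52803816, minus strand) encodes an alpha-class glutathione transferase, a detoxifying enzyme abundant in liver. Its ΔNp63 libraries had 0.576, 0.568 and 0.459 CPM at day 0, 0.579, 0.453 and 0 CPM at day 1, 1.16, 1.56 and 1.51 CPM at day 3 and 5.38, 4.67 and 5.37 CPM at day 6. Day 3 lay above day 0 without overlap, on 19, 28 and 24 counts against 7, 10 and 7. The log2 change at day 3 was 1.39 ± 0.424 and was not called (edgeR adjusted p = 0.109). It was called with the replicate block (0.0468), without the library that stood apart (0.0243) and in a fit of the compared libraries alone (0.0383). The TAp63 line gave 0.154, 0.338 and 0.372 CPM at day 0, 0.517, 0.408 and 0.385 CPM at day 3 and 0.857, 0.625 and 0.741 CPM at day 6, a log2 change of 0.46 ± 0.509 at day 3 (edgeR adjusted p = 1.00). GSTA1 has near-identical neighbours of its own class, so its counts are uncertain.

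PRKCH (chromosome 14, 61321443 to 61550980, plus strand) encodes protein kinase C eta, known from keratinocytes as an isoform of the differentiating epidermal layers. Its ΔNp63 levels were 9.22, 9.31 and 9.32 CPM at day 0, 12.7, 12 and 14 CPM at day 1, 16.3, 16.3 and 18.1 CPM at day 3 and 24, 22.9 and 23.1 CPM at day 6. Consecutive days did not overlap, day 1 included. The day 3 change was 0.86 ± 0.132 (log2, edgeR adjusted p = 0.000508). With TAp63, PRKCH measured 9.71, 9.04 and 9.45 CPM at day 0, 10.2, 13 and 11.3 CPM at day 3 and 10.4, 14.5 and 13.5 CPM at day 6. The TAp63 days 0 and 3 did not overlap, with a log2 change of 0.30 ± 0.135 that was not called (edgeR adjusted p = 0.974). Opposite-strand genes are annotated within BCO1, CACNA1H and PRKCH as well. GENCODE also annotates 1 same-strand gene that overlaps ST6GALNAC2 and 1 that overlaps PRKCH, and their part in the counts was not tested.

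RCAN1 (chromosome 21, 34516443 to 34615113, minus strand) encodes an inhibitor of the phosphatase calcineurin. In the ΔNp63 line it read 40.3, 40.0 and 39.5 CPM at day 0, 41.6, 44.7 and 43.2 CPM at day 1, 49.0, 54.8 and 52.2 CPM at day 3 and 67.1, 71.3 and 72.7 CPM at day 6. The fold was the smallest of the 10, but its replicates were close and no consecutive days overlapped. Its day 3 change was 0.38 ± 0.0927 (log2, edgeR adjusted p = 0.0306). Leaving out any of the ΔNp63 day 0 libraries gave an adjusted p of 0.113 to 0.130, leaving out day 3 replicate 2 gave 0.182, day 3 replicate 3 gave 0.118, no filter on low counts gave 0.0806 and a fit of the compared libraries alone gave 0.0865. TAp63 libraries ran from 35.7 to 39.1 CPM at day 0, from 35.1 to 41.4 CPM at day 3 and from 38.8 to 40.3 CPM at day 6. These overlapped between days 0 and 3 (log2 change 0.06 ± 0.0939, edgeR adjusted p = 1.00).

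Over the whole TAp63 line, 1 of the 10 genes, A4GALT, was called higher at day 3, where 0.428% of tested genes were. The median log2 change of the 10 was 0.38, beside -0.01 over all tested genes, 8 of the 10 were positive, and 4 had an unadjusted p under 0.05. The share of all tested genes at that unadjusted level was not counted. A4GALT, VTCN1, BCO1, GSTA1 and PRKCH had every TAp63 day 3 library above every day 0 library, as 7.10% of tested genes did. With the replicate block the genes called were A4GALT and BCO1, where 0.793% of tested genes were called higher. With the block and without the library that stood apart VTCN1 was called too (edgeR adjusted p = 0.0446), where 3.2% were.

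**Figure D2:**
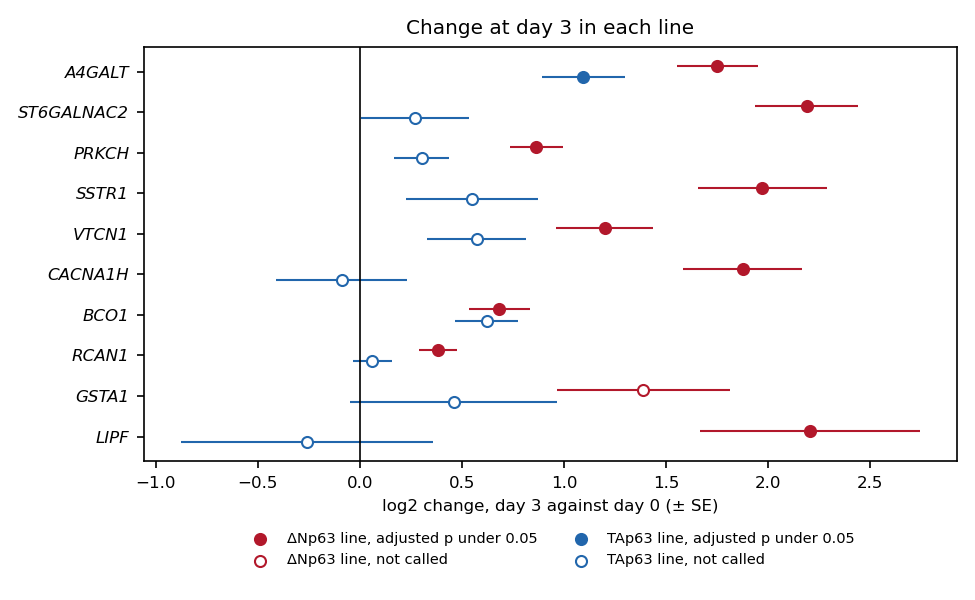
Log2 change at day 3 against day 0 (horizontal axis, ± SE) for each gene, ΔNp63 line in red above TAp63 line in blue; filled points have an edgeR adjusted p under 0.05. In the ΔNp63 line 9 of 10 points are filled and in the TAp63 line only that of A4GALT, and BCO1 is the gene whose 2 points nearly coincide.

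Whether the lines responded differently at day 3 was tested as an interaction, the ΔNp63 change minus the TAp63 change. None of the 10 genes passed (0 called by edgeR), and 0.0448% of all tested genes were called. DESeq2 called 2 of the 10, where it called 0.102% of all tested genes. An unadjusted p under 0.05 was found for 7 of the 10, and the share of all tested genes at that level was not counted. All 10 differences were positive with all libraries, with a median of 0.79 beside -0.02 over all tested genes. ST6GALNAC2 came closest at 1.92 ± 0.364 (log2, adjusted p = 0.0664), followed by CACNA1H at 1.96 ± 0.431 (0.200). These are the genes DESeq2 called (0.00232 for ST6GALNAC2 and 0.0286 for CACNA1H). With the replicate block edgeR called the same pair (0.0208 and 0.0214), where 0.0639% of tested genes were called. ST6GALNAC2 was also called without the library that stood apart (0.0209) and without ΔNp63 day 0 replicate 3 (0.0422). The shares of tested genes called there were 0.127% and 0.0315%. With the block and without the library that stood apart the adjusted p was 0.00101 for ST6GALNAC2 and 0.000908 for CACNA1H, with 0.944% of genes called. The difference was 2.46 ± 0.828 for LIPF (1.13 without TAp63 day 0 replicate 3), 1.42 ± 0.449 for SSTR1, 0.93 ± 0.671 for GSTA1, 0.66 ± 0.281 for A4GALT, 0.63 ± 0.339 for VTCN1, 0.56 ± 0.188 for PRKCH and 0.32 ± 0.132 for RCAN1 (log2, adjusted p = 1.00 for each). For BCO1 it was 0.06 ± 0.214, and it was at or below 0 (down to -0.064) on leaving out TAp63 day 0 replicate 1, TAp63 day 3 replicate 2, ΔNp63 day 0 replicate 2 or ΔNp63 day 3 replicate 2. At day 3 each ΔNp63 library lay above each TAp63 library in all 10 genes, where 7.60% of tested genes showed that separation. BCO1, CACNA1H, GSTA1 and RCAN1 were separated in the same way at day 0 already. The genes were also chosen for a rise mainly in the ΔNp63 line over an interval that holds day 3. The signs and median of the differences and the day 3 separation are therefore a description. The interaction calls are not fully independent of that choice.

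Before induction no gene of the 10 was called in the ΔNp63 line against the TAp63 line (0 by edgeR and by DESeq2, 1 with an unadjusted p under 0.05), where 0.0128% of tested genes were. The day 0 log2 differences ran from -0.46 for SSTR1 to 0.75 for GSTA1, with a median of 0.04. BCO1 was the gene with the low unadjusted p, at 7.08 ± 0.628 CPM in the ΔNp63 line and 5.53 ± 0.688 CPM in the TAp63 line (log2 difference 0.37 ± 0.153). BCO1, CACNA1H, GSTA1 and RCAN1 had every ΔNp63 day 0 library above every TAp63 day 0 library, as 2.67% of tested genes did.

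The genes differed among themselves in when they rose. The share of the ΔNp63 day 6 minus day 0 difference in mean CPM that was reached by day 3 had a median of 48.1% and ran from 15.2% in LIPF and 19% in GSTA1, through 39.7% in RCAN1, 45.1% in BCO1, 45.8% in CACNA1H, 50.3% in VTCN1, 52.9% in SSTR1, 54.4% in PRKCH and 66.4% in ST6GALNAC2, to 91.4% in A4GALT. So A4GALT was near its day 6 level at day 3, LIPF and GSTA1 gained most of theirs afterwards, and the others lay between. By day 1, without the library that stood apart, PRKCH had reached 21.8%, ST6GALNAC2 11.9% and RCAN1 10.6%, and CACNA1H 5.0%. The remaining genes stood between -13% (BCO1) and 1.69% (LIPF). ST6GALNAC2, PRKCH and RCAN1 were the genes with every ΔNp63 day 1 library above every day 0 library, and BCO1 and SSTR1 those with every day 1 library below, where 3.96% of tested genes lay wholly above and 4.99% wholly below. One of the SSTR1 values, from the library that stood apart, was 0 counts.

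**Figure D3:**
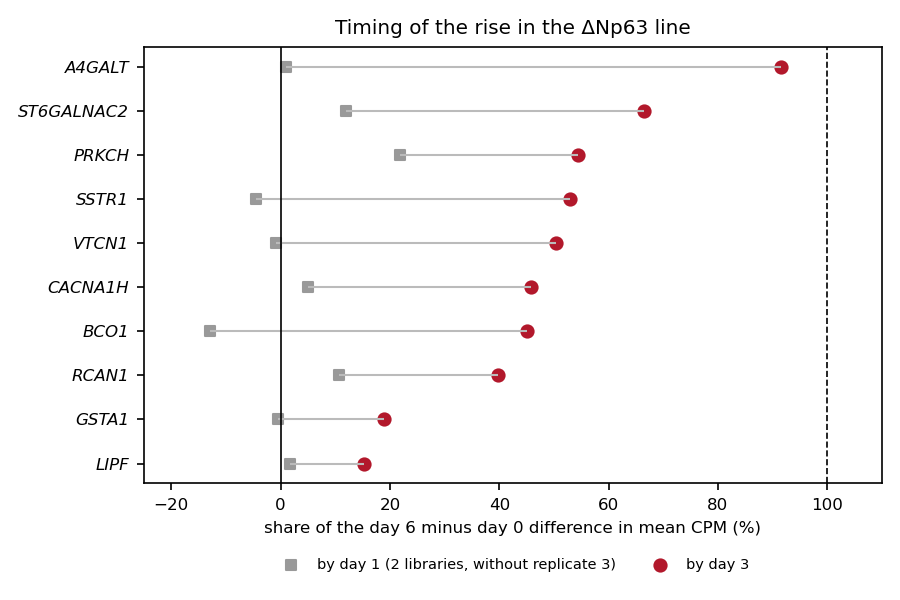
Share of each gene's ΔNp63 day 6 minus day 0 difference in mean CPM (horizontal axis, percent) that was reached by day 1 (grey squares, 2 libraries) and by day 3 (red circles, 3 libraries); the dashed line marks the day 6 level. The day 3 shares run from 15.2% in LIPF to 91.4% in A4GALT.

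At day 6, which took part in choosing the genes, the ΔNp63 mean over the day 0 mean was 24.9 for LIPF, 9.62 for GSTA1, 6.77 for CACNA1H, 6.58 for SSTR1, 6.41 for ST6GALNAC2, 3.60 for A4GALT, 3.58 for VTCN1, 2.51 for PRKCH, 2.34 for BCO1 and 1.76 for RCAN1. The same ratio in the TAp63 line was 2.57 for GSTA1, 2.07 for A4GALT, 1.96 for LIPF and 1.72 for BCO1, and lower in the others, down to 1.05 for RCAN1. ΔNp63 day 6 over TAp63 day 6 was 10.6 for LIPF, 7.42 for CACNA1H, 6.94 for GSTA1, 4.02 for ST6GALNAC2 and 3.15 for SSTR1, and lay between 1.74 and 1.96 for A4GALT, VTCN1, PRKCH, RCAN1 and BCO1. The order of the genes by size of rise and their order by timing were thus not the same: A4GALT was the earliest to plateau with a middling ratio.

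Relatives of the 10 genes, taken from 10 lists of enzymes, channels, receptors and signalling proteins of the same families, were set beside them. The lists held 151 other genes in the table, of which 100 were tested. At ΔNp63 day 3 against day 0, 1 of the 100 was called higher and 0 lower; at TAp63 day 3 against day 0, 0 were called by edgeR. The relatives with an unadjusted p under 0.05 numbered 16 at ΔNp63 day 3 and 7 at TAp63 day 3, and DESeq2 called 2 (GCNT3 higher, NCR3LG1 lower) and 1 (CD276, higher). Over all tested genes DESeq2 called 3.82% and 0.774% in these 2 comparisons. The day 6 test, open to genes that the choice did not use, called 4 of the 100 higher and 1 lower at ΔNp63 day 6 against day 0, where 1.62% of tested genes were called higher and 0.416% lower (19 of the 100 with an unadjusted p under 0.05, 7 called by DESeq2, which added SCARB1 and CRABP2), and 0 at TAp63 day 6 against day 0 (6 with an unadjusted p under 0.05, 1 called by DESeq2). DESeq2 called 3.22% of all tested genes at ΔNp63 day 6 and 0.658% at TAp63 day 6. The share of all tested genes with an unadjusted p under 0.05 was not counted for any of these comparisons. The median log2 change of the 100 at ΔNp63 day 6 was 0.04, beside -0.01 over all tested genes.

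GCNT3, which builds branched mucin-type core glycans, was the relative called at both days: 57.4 ± 7.39 CPM at ΔNp63 day 3 against 21.8 ± 3.15 CPM at day 0 (log2 change 1.40 ± 0.285, edgeR adjusted p = 0.00883), and 65.4 ± 9.71 CPM at day 6 (1.58 ± 0.288, 0.00277). Its day 3 call was lost without ΔNp63 day 0 replicate 1 (0.0714). In the TAp63 line it stood at 25.8 ± 5.93 CPM at day 6 against 21.3 ± 1.28 CPM at day 0. Within the same list the other 13 tested genes were not called at ΔNp63 day 6, nor were the 10 tested relatives of A4GALT in glycosphingolipid synthesis (1 with an unadjusted p under 0.05, 0 called by DESeq2).

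Among 18 tested genes of carotenoid and retinoid metabolism other than BCO1, RARG, a retinoic acid receptor, rose at ΔNp63 day 6 to 37.9 ± 3.88 CPM against 24.1 ± 2.14 CPM at day 0 (log2 change 0.65 ± 0.149, edgeR adjusted p = 0.0205). STRA6, a membrane importer of retinol, fell to 21.3 ± 1.72 CPM against 40.7 ± 2.88 CPM (-0.93 ± 0.215, 0.0212). Of 17 other calcium channel subunits CACNA1B, the pore of the N-type channel, rose to 12.5 ± 6.48 CPM against 4.25 ± 1.64 CPM (1.58 ± 0.369, 0.0234). Of 12 other glutathione transferases GSTA3 rose to 1.08 ± 0.245 CPM against 0.185 ± 0.169 CPM (2.55 ± 0.642, 0.0388). The calls of STRA6 and GSTA3 were lost on leaving out any one of the 6 libraries compared (adjusted p 0.0504 to 0.114 and 0.0533 to 0.174). RARG lost its call without day 0 replicate 1, day 0 replicate 3, day 6 replicate 1 or day 6 replicate 3 (0.0742 to 0.121), and CACNA1B without day 0 replicate 1, day 0 replicate 3, day 6 replicate 1 or day 6 replicate 2 (0.0787 to 0.202).

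Some closest relatives, named here for kinship and not by the naming rule, gave these values at ΔNp63 day 6 and day 0. SSTR2, the other somatostatin receptor that could be tested, had 33.0 ± 7.50 CPM at day 6 and 26.8 ± 4.92 CPM at day 0 (log2 change 0.29, not called). The remaining T-type channel genes were CACNA1G, with 2.81 ± 0.880 and 2.58 ± 0.130 CPM at days 6 and 0, and CACNA1I, with 5.24 ± 1.65 and 3.76 ± 0.948 CPM; neither was called. BCO2, the other carotenoid oxygenase, had 79.6 ± 12.8 CPM at day 6 and 119.5 ± 25 CPM at day 0, and RCAN3 19.2 ± 5.00 CPM and 11.9 ± 2.54 CPM, again not called. GSTA2 was too low to test, with at most 0.665 CPM in any library. None of the 5 tested B7 relatives of VTCN1, the 9 tested relatives of PRKCH, the 12 tested genes of calcineurin and NFAT signalling or the 2 tested acid lipases was called at ΔNp63 day 6 by edgeR or by DESeq2. An unadjusted p under 0.05 was found for 1 of the B7 relatives, 0 of those of PRKCH, 2 of the calcineurin and NFAT genes and 1 of the acid lipases.

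**Figure D4:**
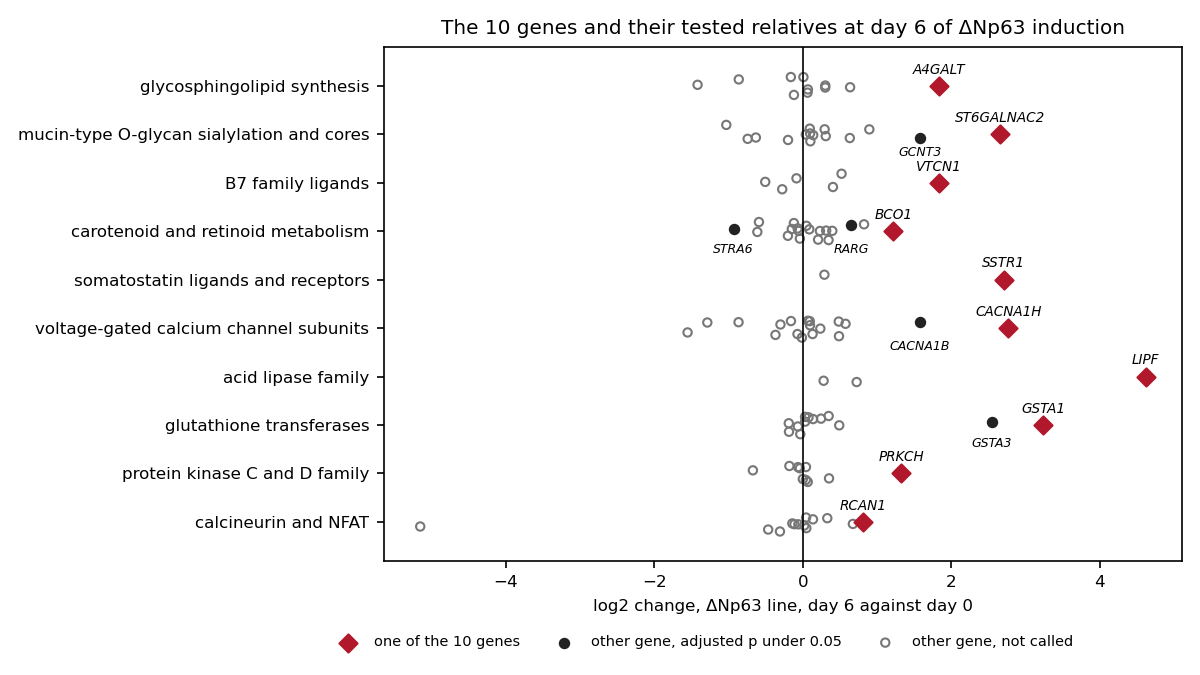
Log2 change at ΔNp63 day 6 against day 0 (horizontal axis) for the 10 genes (red diamonds, a description since day 6 chose them) and their 100 tested relatives by list (filled black, edgeR adjusted p under 0.05; open, not called); vertical scatter within a row is for legibility. GCNT3, CACNA1B, GSTA3 and RARG lie to the right and STRA6 to the left; the open point at -5.15 is NFATC2, which was not called.

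The genes whose group means followed the 10 most closely were SOCS1, ART5, TRIB1, EDARADD and TGFBI. Likeness was Pearson's r between a gene's log2(CPM + 0.5) group means and the mean of the 10 genes' standardised profiles, over the 8 groups of line and day without the library that stood apart, among 14926 genes of at least 1 CPM in their highest group. It was 0.993 for SOCS1, 0.990 for ART5, 0.989 for TRIB1, and 0.987 for EDARADD and TGFBI, while the 10 genes themselves ran from 0.928 for A4GALT to 0.979 for PRKCH. All points come from the same libraries and depths, so r is a description. SOCS1, an inhibitor of cytokine signalling, had 4.40 ± 0.215 CPM at ΔNp63 day 6 and 1.20 ± 0.310 CPM at day 0, with 1.66 CPM at TAp63 day 6. ART5 had 28.5 ± 10.8 and 3.72 ± 1.6 CPM at ΔNp63 days 6 and 0, and TRIB1, a pseudokinase, 77.9 ± 7.60 and 41.3 ± 5.08 CPM. EDARADD, an adaptor of the ectodysplasin receptor, had 17.6 ± 2.66 and 3.19 ± 1.19 CPM at ΔNp63 days 6 and 0, and 4.33 CPM at TAp63 day 6.

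Markers of other cell states were summed in each library. The summed level of 11 squamous markers, none at 0 throughout, was 196 to 242 CPM at ΔNp63 day 3 and 273 to 343 CPM at day 6, against 54.0 to 64.7 CPM at day 0. Of the 9 tested, 5 were called higher at day 3 and 8 at day 6, where 1.66% and 1.62% of all tested genes were. KRT14 and DSG3 were too low to be tested. TRIM29 (122 ± 6.83 CPM) and KRT13 (82.7 ± 23.8 CPM) were the largest parts of the ΔNp63 day 6 sum. In the TAp63 line the sum was 91.5 to 96.7 CPM at day 3 against 54.5 to 71.9 CPM at day 0. SPRR3 was called higher at TAp63 day 6, at 24.3 ± 6.69 CPM against 6.53 ± 1.67 CPM at day 0. At ΔNp63 day 6 SPRR3 was not called, at 8.06 ± 2.95 CPM against 6.46 ± 1.38 CPM at day 0. The sum of 10 tuft cell markers was 465 to 539 CPM at ΔNp63 day 3 against 732 to 764 CPM at day 0. BMX, AVIL and GFI1B were called lower, where 2.2% of tested genes were called in either direction. The largest parts of that sum were SOX9, at 251 ± 26.6 CPM against 335 ± 5.30 CPM, and POU2F3, at 137 ± 12.8 CPM against 196 ± 13.7 CPM. Neither SOX9 nor POU2F3 was called. That sum was already 453 to 530 CPM at ΔNp63 day 1, and it was 534 to 594 CPM at ΔNp63 day 6. The AVIL call was lost on leaving out ΔNp63 day 0 replicate 2 or any of the day 3 libraries (adjusted p 0.0718 to 0.116), that of GFI1B without day 0 replicate 2, day 3 replicate 2 or day 3 replicate 3 (0.0880 to 0.131), and at day 6 BMX alone of the 3 was called. In the TAp63 line the tuft sum was 633 to 694 CPM at day 3 against 767 to 802 CPM at day 0, and BMX was called lower there (edgeR adjusted p = 0.00843), a call lost without TAp63 day 0 replicate 2 (0.112) or day 3 replicate 3 (0.0921). The part of these in the levels of the 10 genes was not tested. Apart from LIPF, 14 gastric markers were in the table and 2 could be tested, MUC5AC and MUC6. PGA4 and GKN1 were listed at 0 in every library, as were the widely expressed GLA and GSTK1. Most of the gastric sum was the mucin MUC5AC, at 2.69 ± 0.649 CPM at ΔNp63 day 6 against 5.31 ± 0.537 CPM at day 0, and the sum was 3.81 to 6.23 CPM at ΔNp63 day 6 against 7.04 to 8.14 CPM at day 0. Fibroblast markers summed to 18.6 to 29.1 CPM at ΔNp63 day 6 against 14.3 to 20.1 CPM at day 0, with COL3A1 called higher at days 3 and 6 (0.951 ± 0.546 CPM at day 6 against 0.0464 ± 0.0421 CPM at day 0), and immune cell markers, most of it LYZ, to 500 to 672 CPM against 922 to 1104 CPM. Erythroid markers reached 3954 CPM at ΔNp63 day 1, in the group of the library that stood apart, and were 2.59 to 46.3 CPM at ΔNp63 day 6 against 1.97 to 76.6 CPM at day 0.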

How the data were processed

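Per the labels' protocols total RNA was extracted with TRIzol and made into NEBNext Ultra libraries. The authors deposited raw read counts per gene, not normalized. The submitters' processing notes name HISAT2 2.1.0 for alignment, hg38 as the build and featureCounts 1.6.1 for counting, whereas the file header names featureCounts 2.0.0, UCSC refGene, fragments counted over whole transcript spans with introns, and no strand or multi-mapping option. Totals ran from 1530847 to 22019974 counts, and genes with few counts are correspondingly imprecise. Replicates differed by more than sampling noise in every group (lowest chi-square per degree of freedom 5.05).

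From these counts, levels were computed as CPM on TMM-adjusted library sizes in R 4.3.3. All 24 libraries entered one edgeR 4.0.16 quasi-likelihood model (filterByExpr, TMM, 16 residual degrees of freedom), with Benjamini-Hochberg adjustment over 15642 genes and a threshold of 0.05. SE was taken from the log2 change and its F statistic. Counts at an unadjusted p under 0.05 are given without the share over all tested genes, which was not counted. Alternatives were median-of-ratios size factors, no filter, DESeq2 1.42.0, the replicate number as a block, leaving out ΔNp63 day 1 replicate 3, both together, only the compared libraries, each library left out in turn, and plain totals for levels. The script was tested on simulated data. The 10 genes, the lists of relatives and markers, and the comparisons were chosen with earlier results of these data known. Genes named besides the 10 were called members of those lists (at least 1 CPM, at most 4 per list), TP63, HBG2, marker genes, and the 5 of highest likeness. Replicate numbers in the titles pair the libraries: all 18 same-number correlations of deviations from group means, over 6 pairs of groups, exceeded 0.1 (0.256 to 0.707), and 18 of 18 were highest with their own number. Coordinates are hg38 from the deposited table, and promoter sequences are RefSeq's (GRCh38.p14); the printed windows end at the table's starts, whereas those of PRKCH, VTCN1 and RCAN1 and one of A4GALT include starts that differ from it.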

Additional observations from a re-analysis of the deposited data

How the results depend on the processing

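Directions of the called changes of the 10 genes held under every alternative run. Counts of genes called, in either direction, at ΔNp63 day 3, TAp63 day 3, the difference of the day 3 responses, day 0 between lines, ΔNp63 day 6 and TAp63 day 6 were 344, 68, 7, 2, 318 and 69. The replicate block gave 1078, 141, 10, 6, 714 and 122; it changed no call of the 10 other than GSTA1, BCO1, ST6GALNAC2 and CACNA1H, so that 2 of the 10 were called at TAp63 day 3 and 2 in the difference of responses. Without ΔNp63 day 1 replicate 3 the counts were 1000, 151, 20, 7, 784 and 154, with 2 and 1 of the 10 called in those comparisons, and with both changes 3712, 722, 149, 27, 2221 and 568, with 3 and 2; every gene called with all libraries and no block was still called under these settings. DESeq2 gave 597, 121, 16, 8, 503 and 103, with 2 of the 10 in the difference of responses. A fit of the compared libraries alone gave 546, 3, 0 and 494 at ΔNp63 day 3, the difference of responses, day 0 and ΔNp63 day 6. At day 0 median-of-ratios size factors gave 4 and no filter 1. Leaving out each library of a comparison in turn gave 144 to 229, 32 to 51, 2 to 5, 0 to 0, 175 to 225 and 28 to 52 genes; of the 10, 5 to 8 were called at ΔNp63 day 3, 0 to 1 at TAp63 day 3 and 0 to 1 in the difference of responses. A4GALT, ST6GALNAC2, SSTR1, CACNA1H and PRKCH were called at ΔNp63 day 3 in all 13 alternatives. Among relatives, GSTA3 at ΔNp63 day 6 had an adjusted p of 0.0683 with no filter and CACNA1B 0.0503 with the compared libraries alone. The cause of these movements was not tested. LIPF and GSTA1 rested on few counts, 4, 3 and 3 and 7, 10 and 7 at ΔNp63 day 0; RCAN1, with 489 to 704, lost its ΔNp63 day 3 call in 7 of 13 alternatives and LIPF in 6.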
